A study of Mus musculus with 8 samples.

Results

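Long miRNA-annotated reads of mouse sperm are reads that SPORTS1.1, the program with which the deposited tables were made, assigned to a mouse miRNA although they were 28 to 45 nt long, beyond the size of a mature miRNA. They were taken as every sequence whose annotation names a mouse miRNA or let-7 gene and whose length lies in that range. A miRNA name without its copy number was the unit of summing. Of 5724730 distinct sequences in the 8 libraries, 799 met the rule, beside 11896 miRNA-annotated sequences of 15 to 27 nt. The 799 fragments carried 7766 reads and belonged to 177 of the 861 miRNA names with any read.

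Sperm from the caudae epididymides of 8 male mice was profiled by small RNA sequencing, to ask how AgRP neurons, the hunger-promoting neurons of the arcuate nucleus, affect the RNA carried by sperm. All mice were operated on at 8 weeks of age and received, on both sides of the arcuate nucleus, a Cre-dependent AAV for the excitatory DREADD hM3Dq fused to mCherry, a designed receptor that excites a neuron when its ligand CNO binds. Every mouse was given CNO without access to food, and sperm was collected 4 hours later. The activated group consisted of 4 Agrp Cre/+ mice, in which Cre under the Agrp gene turns the receptor on. The control group consisted of 4 Agrp +/+ mice of the same breeding, with no Cre, so that Agrp genotype and neuronal activation cannot be told apart. Each mouse gave 1 library.

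A miRNA gene is transcribed as a long primary RNA, from which Drosha releases a hairpin. Dicer then removes the loop and leaves a duplex of a 5p and a 3p strand, and 1 strand is kept by an Argonaute protein. A fragment that holds a mature miRNA together with loop sequence is therefore longer than the mature form. miR-451a is a known exception, since its short hairpin is cut by AGO2 and trimmed without Dicer. Sperm also inherits piRNAs from the testis, which are cut from long precursor RNAs without a hairpin, are longer than miRNAs and mostly begin with U. Box C/D snoRNAs, which guide methylation of rRNA, mostly lie in introns and carry a C box and a D box near their ends.

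The most abundant long fragment of each leading name gives an example of these reads. Among the fragments shown, its share of the name's long reads ran from 12.15% for miR-677 to 81.4% for miR-140. In the next sequences, written 5' to 3' as in the deposited files with T for U, capitals mark the bases that RefSeq (GRCm38.p6) assigns to a mature miRNA. The first set comes from hairpins with a well-known mature miRNA, and shows mature sequence joined to further hairpin sequence.
miR-140, 38 nt: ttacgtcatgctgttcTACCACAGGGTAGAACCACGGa
miR-451a, 29 nt: AAACCGTTACCATTACTGAGTTtagtaat
let-7a, 30 nt: TGAGGTAGTAGGTTGTATAGTTttagggtc
The second set lies in genes that GENCODE M21 also annotates as snoRNAs.
miR-3535, 41 nt: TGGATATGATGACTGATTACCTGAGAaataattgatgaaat
miR-677, 30 nt: atttgctGAAGCCAGATGCCGTTCCTGAGA
miR-3068, 34 nt: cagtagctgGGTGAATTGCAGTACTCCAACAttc
The third set comes from names between miR-7210 and miR-7243, and shows a frequent T at the first base.
miR-7217, 28 nt: GTGAGACAGAAGGgcacgcctacggccc
miR-7210, 30 nt: TAACATTGTAGACAGGCACAAAGatcccct
miR-7234, 30 nt: TaggtagAAACGTCTTTCTAGGGTAGAAGG
miR-7242, 29 nt: ttctccatgaaggggctcacctTGGCAGC
miR-7214, 29 nt: tgagaatgtgtctccccaccCTCAGTCCT
In the capitals of the miR-7234 fragment, the first base belongs to the 5p and the rest to the 3p miRNA. The mature miRNAs of the names on which the results turn have these sequences in RefSeq, with the seed (bases 2 to 8) in capitals. No seed occurs more than once among them.
miR-140-3p: tACCACAGggtagaaccacgg
miR-451a: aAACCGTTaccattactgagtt
let-7a-5p: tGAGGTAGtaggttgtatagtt
miR-3535: tGGATATGatgactgattacctgaga
miR-7210-5p: tAACATTGtagacaggcacaaag

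On GRCm38 the miR-140 fragment lies at chr8:107551272-107551309 (plus strand), inside Wwp2, in sequence that GENCODE places in an exon of a retained-intron transcript. The miR-451a fragment lies at chr11:78073186-78073214 (plus strand), opposite Mir451b. The let-7a fragment is placed here at let-7a-1, chr13:48538231-48538260 (minus strand), in an exon of the lincRNA 6720427I07Rik. The miR-3535 fragment lies at chr1:86352047-86352087 (minus strand), inside the snoRNA gene Gm24148 and within Ncl, the gene of nucleolin, again in an exon of a retained-intron transcript. The miR-677 fragment lies at chr10:128085328-128085357 (plus strand) in an intron of Atp5b, and the miR-3068 fragment at chr12:87437682-87437715 (minus strand) in an intron of Alkbh1. The miR-3068 hairpin also overlaps in part an exon of the lincRNA Gm29362 on the same strand. The miR-7217 fragment lies at chr17:27355750-27355777 (plus strand) in an exon of the lincRNA Gm49794. The miR-7214 fragment lies at chr17:27317050-27317078 (minus strand) in an intron of the lincRNA Gm49793, and the miR-7234 fragment at chr7:73819612-73819641 (plus strand) in an exon of the lincRNA Gm21269. The miR-7210 fragment, chr14:24088877-24088906 (plus strand), and the miR-7242 fragment, chr9:67729514-67729542 (minus strand), lie in no other annotated gene. No sequence is given for miR-1194, whose fragments match 186 annotated genes.

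Libraries held 9297271 to 23123740 reads, of which 574 to 1616 were long miRNA-annotated reads. Reads were not marked by molecular identifiers, so a count is not a count of molecules. Of the 799 fragments, 550 (68.8%) were seen in 1 library, with 17.7% of the reads and up to 13 reads each. The 18 fragments present in all 8 libraries carried 51.6% of the reads. Control replicate 4 stood apart in markers of other tissues. The short reads (15 to 27 nt) of the smooth muscle miRNAs miR-143 and miR-145a summed to 34884 RPM (reads per 1000000 reads of the library) in it and to 137 to 385 RPM in the other 7 libraries. Short reads of 7 epithelial miRNAs, miR-200c being the most abundant, summed to 19419 RPM in it and to 1084 to 3476 RPM elsewhere. The 12 testis and sperm miRNAs, led by miR-34c, summed to 21292 to 41435 RPM of short reads in all 8 libraries, so that markers of the labelled cells were present in each.

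Summed long miRNA-annotated reads did not differ between the groups beyond the test's threshold. They amounted to 64.9, 59.6, 66.7 and 61.0 RPM in activated replicates 1 to 4 and to 64.3, 69.9, 72.6 and 77.2 RPM in control replicates 1 to 4. The groups overlapped, since control replicate 1 lay within the activated range. The activated mean was 63.1 ± 3.32 RPM and the control mean 71.0 ± 5.39 RPM (SD, n = 4 each), or 0.888 as a ratio. The two-sided exact permutation test over the 70 assignments gave p = 0.0857, with 0.0286 the smallest p it can give. Without control replicate 1 the ratio was 0.861 and the exact permutation p 0.0286, and without control replicate 4 it was 0.915 with an exact permutation p of 0.143. Without miR-3535, the name with most long reads, the ratio was 1.02 (exact permutation p = 0.771), so the direction of the sum rested on that name. The libraries also differed in mitochondrial rRNA, at 0.123% to 0.182% of reads in activated replicates 1 and 4 and control replicates 2 and 4, and 1.09% to 1.89% in the others. The ratio was 0.856 within the first 4 libraries and 0.922 within the other 4.

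Beside the abundant mature miRNAs the long reads were rare. They made up 0.0172%, 0.0206%, 0.0291% and 0.0163% of all miRNA-annotated reads in activated replicates 1 to 4, and 0.0248%, 0.0211%, 0.0407% and 0.0164% in control replicates 1 to 4. The 95% Wilson interval ran from 0.0150% to 0.0177% for activated replicate 4, the library with fewest such reads, and covers counting error only. The group means were 0.0208 ± 0.00582% and 0.0257 ± 0.0106% (SD, n = 4 each; exact permutation p = 0.514). Control replicate 3 had the highest share, and also the lowest miRNA content, 178380 RPM against 470993 RPM in control replicate 4. Without control replicate 3 the ratio of the means moved from 0.808 to 1.002.

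Reads became fewer from 28 to 32 nt, with separate peaks at 38 nt and at 41 nt. Reads of 28 to 31 nt made up 48.3% of the total and came from 124 names, miR-7217 giving 20.8% of them and miR-7210 15.8%. Of the reads of 37 to 39 nt, 65.9% came from miR-140, and of the reads of 40 to 42 nt, 87.4% came from miR-3535. The bound of 28 nt lies on a slope, with 6672 reads at 26 nt, 1866 at 27 nt, 1462 at 28 nt and 1033 at 29 nt.

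**Figure D1:**
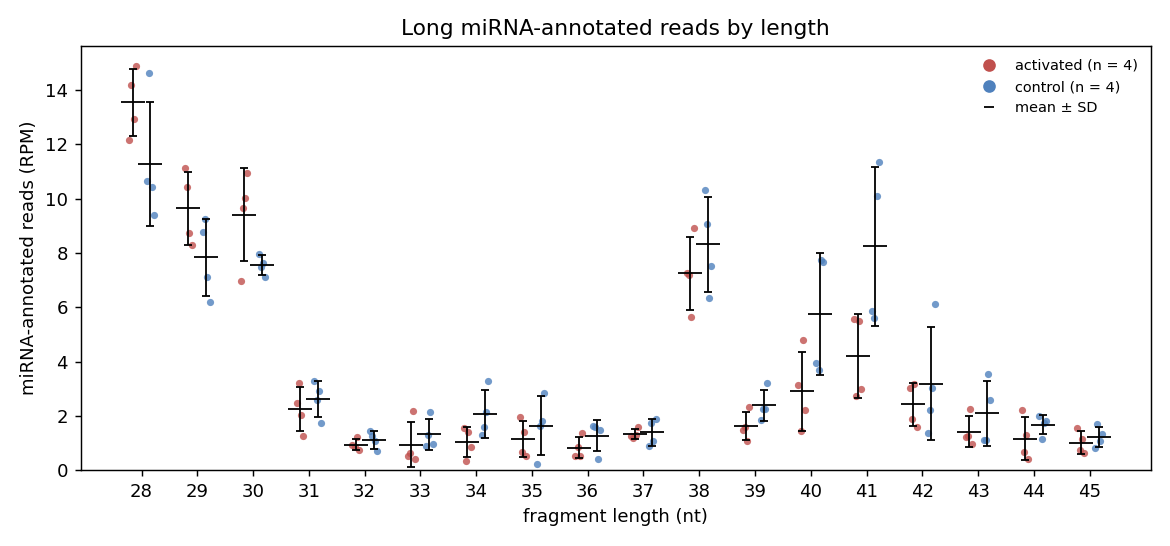
Each point is 1 library's miRNA-annotated reads (RPM, vertical axis) at a fragment length from 28 to 45 nt (horizontal axis), with bars for the mean ± SD of the 4 activated and the 4 control libraries. The highest means stand at 28 nt, 13.5 RPM for the activated and 11.3 RPM for the control group, and the groups are apart at 41 nt, 4.195 against 8.24 RPM.

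At 28 nt, the length with most long reads, activated libraries held 12.1, 14.2, 12.9 and 14.9 RPM and control libraries 10.6, 14.6, 10.4 and 9.41 RPM. These values overlapped (exact permutation p = 0.143, 0.531 after Benjamini-Hochberg adjustment over 31 lengths). Without control replicate 2 the ratio was 1.33 and the exact permutation p 0.0286. At 41 nt activated libraries held 5.57, 2.74, 5.49 and 2.98 RPM and control libraries 5.88, 5.62, 10.1 and 11.4 RPM. Here the groups did not overlap, every control library lying above every activated one, and the exact permutation test gave p = 0.0286, the smallest it can give. It was 0.531 after adjustment over the lengths, so no length passed. The unadjusted p was below 0.05 at 1 of the 31 lengths from 15 to 45 nt, or 3.23%, and that length was 41 nt itself. Most 41-nt reads, 594 of 700, were the miR-3535 fragment shown above.

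Few names gave most of the long reads. The 4 leading ones, miR-3535, miR-140, miR-7217 and miR-7210, carried 58.3% of them and the 12 leading ones 73.2%, whereas 105 of the 177 names had at most 10 long reads in all and 74 were seen in 1 library. Reads fell into sources that the annotation tells apart. Fragments inside an annotated snoRNA or scaRNA gave 31.8% of the long reads from 10 names, 87.8% of them miR-3535. The 16 names between miR-7210 and miR-7243 gave 30.1%. Fragments that match 10 or more annotated genes, called many-copy here and led by miR-1194, gave 4.42% from 10 names. The remaining hairpins, with the conserved miRNAs, gave 33.7%, miR-140 first with 36.7% of theirs. These sources were drawn up after the values had been seen, and their sums are given without a test.

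The sums of the sources lay on different sides of 1, and the difference between sources was not tested. The names between miR-7210 and miR-7243 summed to 21.4, 25.4, 24.1 and 23.7 RPM in activated and to 18.7, 20.8, 11.9 and 11.9 RPM in control libraries. The activated libraries were all above the control ones, with a ratio of means of 1.49. The remaining hairpins summed to 18.9, 20.01, 17.96 and 20.1 RPM in activated and to 23.8, 26.5, 24.2 and 27.7 RPM in control libraries. The order was opposite here, all activated libraries being below the control ones, with a ratio of 0.752. These hairpins include the tissue markers given below. Long miR-451a reads averaged 0.955 RPM in activated and 2.51 RPM in control libraries, epithelial miRNAs 0.473 and 1.30 RPM, and smooth muscle miRNAs 0 and 0.558 RPM. Immune miRNAs ran the other way, at 0.349 and 0.183 RPM, as did testis and sperm miRNAs, at 0.337 and 0.204 RPM. Their part in the sum was not tested. Fragments inside snoRNAs or scaRNAs summed to 21.3, 11.1, 21.6 and 11.9 RPM in activated and to 18.4, 19.9, 34.2 and 36.2 RPM in control libraries, which overlapped. Many-copy fragments lay between 1.32 and 5.31 RPM and overlapped as well. Each ratio kept its side of 1 when scaled to genome-matching reads or by TMM, the trimmed mean of M-values that edgeR uses to scale libraries, and without control replicate 4.

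**Figure D2:**
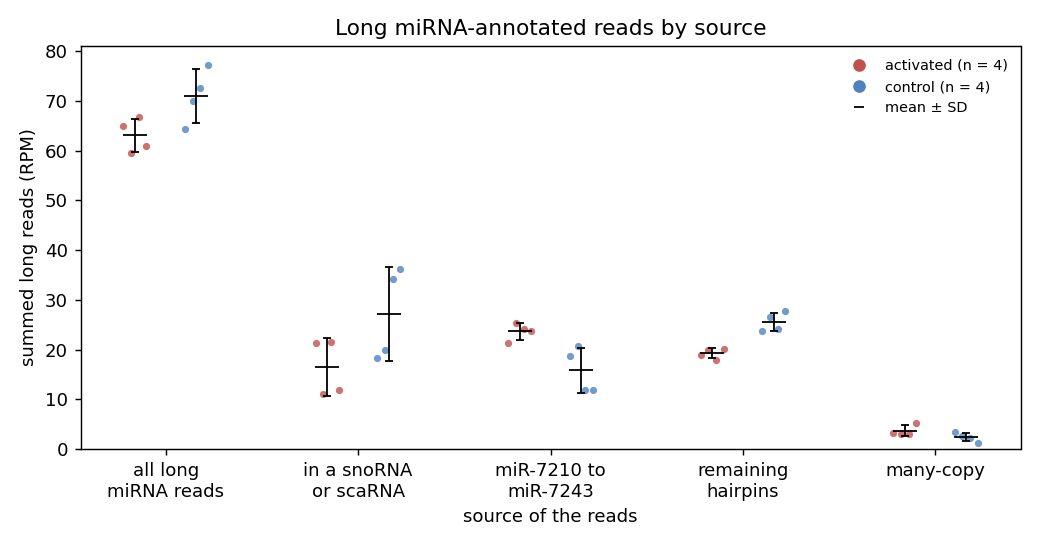
Each point is 1 library's summed long miRNA-annotated reads (RPM, vertical axis), for all of them and for 4 sources of the reads (horizontal axis), with bars for the mean ± SD of 4 libraries a group. Names from miR-7210 to miR-7243 average 23.7 RPM in the activated and 15.8 RPM in the control group, and the remaining hairpins 19.2 and 25.6 RPM.

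Directions of single names were counted by source, again as a description, each name under the source of most of its reads. Among the 72 names with over 10 long reads, 33 had the higher mean in activated and 39 in control sperm, with a median ratio of 0.818. Among these, 12 of 15 names between miR-7210 and miR-7243 were higher in activated sperm (median ratio 1.60), as were 5 of 6 many-copy names (median ratio 1.69). This held for 0 of 6 names inside snoRNAs or scaRNAs (median ratio 0.486). Of the remaining hairpins 16 of 45 were higher in activated sperm (median ratio 0.540). Groups did not overlap for 3 of these 72 names, miR-7210, miR-451a and miR-7229. Of the species with enough counts for the test across all RNAs below, the same held for 1 of 4 long miRNA names and for 2.24% of all (17 of 759), and 4 names are too few to compare the shares.

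Long reads of most names were too few for a test across all RNAs. In a table of every annotated RNA, split into reads of 15 to 27 nt and of 28 to 45 nt, 759 species had at least 50 counts in at least 4 libraries, and 4 of the 177 long miRNA names were among them. edgeR's quasi-likelihood test called 0 of these 4, with thresholds of 0.05 for the p adjusted by Benjamini-Hochberg and of 1 for the size of the log2 fold change in either direction. It called 0% of the whole table, 0 of 759 species, where the unadjusted p, with no fold minimum, was under 0.05 for 14 higher and 46 lower ones. DESeq2 called 3 species lower and 0 higher, none of them a long miRNA. The median log2 fold change was 0.32 for the 4 names and -0.05 for all 759 species. Of single fragments, 12077 passed the same count minimum and edgeR called 61 (0.505%), all of these higher in activated sperm. The 3 long miRNA fragments tested, those of miR-3535, miR-140 and miR-7217 shown above, were not among them. Before adjustment and with no fold minimum, edgeR gave a p under 0.05 to 377 higher and 497 lower fragments. DESeq2 called 195 fragments higher and 45 lower, and edgeR with the mitochondrial rRNA set as a factor 100 higher and 7 lower. The 61 calls also depended on single libraries, since edgeR called 30 without activated replicate 2, 58 without control replicate 1 and 0 when any other library was left out.

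miR-3535 gave more long reads than any other name. It had 19.4, 10.46, 19.9 and 9.46 RPM in activated replicates 1 to 4 and 15.5, 16.4, 29.04 and 33.2 RPM in control replicates 1 to 4. Both groups were widely spread, the higher control values standing in replicates 3 and 4. The log2 fold change was -0.61 ± 0.40 (SE), with an edgeR adjusted p of 0.686. Long reads made up 56.9% of its 3819 reads, and 88.9% of the long ones started within 2 bases of the annotated start of miR-3535 and ran past its end. Its 41-nt fragment had 4.70, 2.12, 4.47 and 2.44 RPM in activated and 5.39, 4.37, 9.25 and 10.04 RPM in control libraries. These overlapped in activated replicates 1 and 3 and control replicate 2, with a log2 fold change of -1.18 ± 0.51 (SE) and an edgeR adjusted p of 0.669. The shrunken log2 fold change of DESeq2 with apeglm was much smaller, at -0.195. The motif TGATGA, the core of the C box, was searched on the strand of the read and stood in 57 of its 65 long fragments (87.7%), against 7 of 72 (9.72%) of the other miRNA-annotated fragments inside snoRNAs or scaRNAs, 23.6% of snoRNA-annotated and 1.32% of all fragments of that length. The fragments compared with them were not limited to box C/D snoRNAs. The miR-3535 fragments overlap at 1 locus, so they share the same motif.

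miR-140, known for its role in cartilage and hosted by Wwp2, gave long reads of mostly 1 form. A single 38-nt fragment, shown above, carried 782 of its 961 long reads (81.4%, the highest share of a leading fragment among the 12 leading names), and 93.4% of the reads ended within 2 bases of the end of miR-140-3p and held it whole. Its long reads came to 7.51, 8.12, 6.57 and 11.8 RPM in activated and to 9.74, 10.4, 5.81 and 5.85 RPM in control libraries. The groups overlapped throughout, with a log2 fold change of 0.15 ± 0.29 (SE) and an edgeR adjusted p of 0.805. Long reads were 2.35% of all miR-140 reads.

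Reads of 28 to 30 nt made up 97.96% of the long reads of miR-7217 and 87.95% of those of miR-7210. miR-7217 had 5.77, 7.66, 9.83 and 6.59 RPM in activated and 4.75, 8.17, 5.49 and 4.18 RPM in control libraries. The groups overlapped through control replicate 2, and the log2 fold change was 0.49 ± 0.31 (SE, edgeR adjusted p = 0.686). Its leading fragment, 79.1% of its long reads, began inside the annotated 5p miRNA and ended in the loop, just before the annotated start of the 3p miRNA. Of its long reads 96.9% neither started within 2 bases of a mature start nor ended within 2 bases of a mature end. miR-7210 had 5.97, 7.20, 5.83 and 5.85 RPM in activated and 4.99, 5.19, 1.51 and 3.76 RPM in control libraries. Every activated library was above every control one, and this was the single tested long miRNA species with such an order. The log2 fold change of 0.73 ± 0.36 (SE) had an edgeR adjusted p of 0.620 across the table. Of its long reads 99.2% began within 2 bases of the annotated start of miR-7210-5p. Long reads made up 53.5% of all miR-7217 and 43.4% of all miR-7210 reads.

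**Figure D3:**
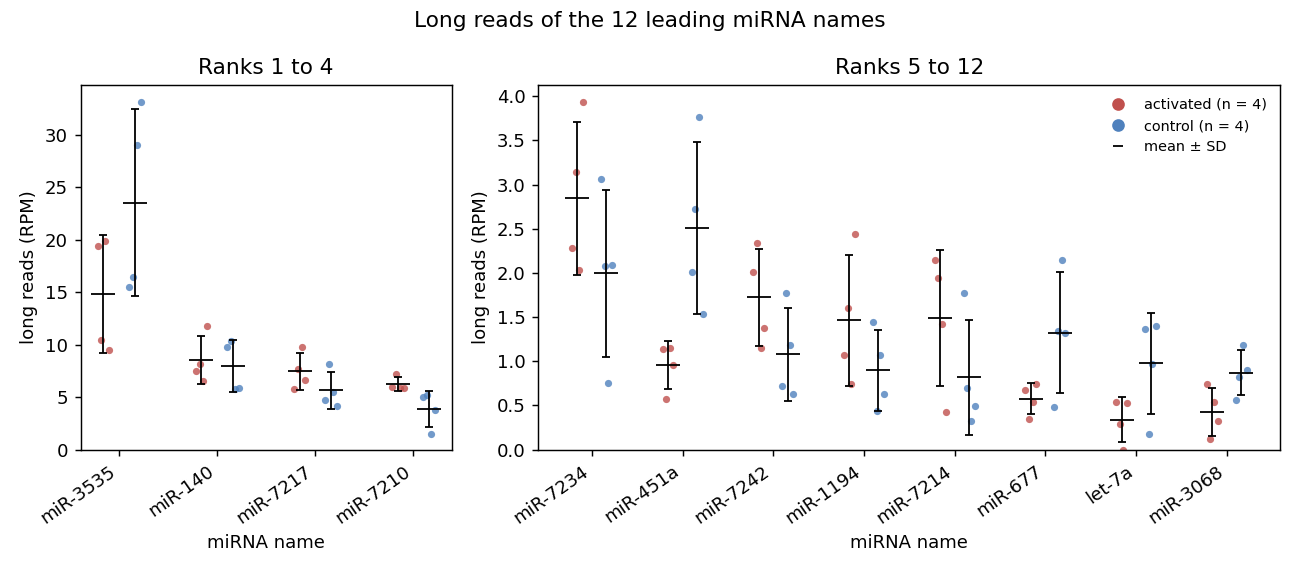
Each point is 1 library's long reads (RPM, vertical axis) of a miRNA name (horizontal axis), for the 12 names with the highest mean over 8 libraries, with bars for the mean ± SD of 4 activated and 4 control libraries. miR-3535 spans 9.46 to 33.2 RPM, and groups are apart for miR-7210 and miR-451a.

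miR-451a is the most abundant miRNA of red blood cells. Its long reads came to 1.14, 0.572, 1.15 and 0.957 RPM in activated and to 2.01, 2.72, 3.76 and 1.53 RPM in control libraries. All activated libraries were below all control ones, with a ratio of 0.381, on 9 to 63 reads a library. The name stayed under the count minimum, and with at least 10 counts in 4 libraries its log2 fold change was -1.30 ± 0.41 (SE) with an edgeR adjusted p of 0.568. Its 3 long fragments all began at the start of miR-451a and were 28 to 30 nt long. Its short reads ran alike, at 177, 45.8, 62.0 and 56.0 RPM in activated and 120, 362, 538 and 261 RPM in control libraries, overlapping through activated replicate 1. Of the erythroid list (miR-451a, miR-486a, miR-486b and miR-144) 1 of 4 had long reads, and all 4 had short reads. The list's short reads, most of them miR-451a, summed to 200, 47.3, 63.4 and 57.4 RPM in activated and to 124, 380, 561 and 283 RPM in control libraries. Their part in the result was not tested, and fewer cells of a type cannot be told apart from less RNA per cell. miR-144 had 0 long of 1072 reads, which allows a share of up to 0.280%, and miR-486a 0 of 311, which allows up to 0.965%, counting 0 as at most 3.

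let-7 miRNAs, which promote differentiation and are conserved across animals, gave 261 long reads from 8 names. They summed to 2.15, 1.03, 0.678 and 1.59 RPM in activated and to 3.86, 2.03, 4.73 and 3.28 RPM in control libraries. Only activated replicate 1 reached the control range, above control replicate 2. let-7a itself had 0 to 20 long reads a library, of 973196 reads in all, and 77.9% of the long ones held let-7a-5p with loop sequence after it. miR-34c, abundant in sperm, had 2 long reads of 967252. miR-16, with 10254428 reads, had 43 long ones, and miR-191, with 7335285, had 19.

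**Figure D4:**
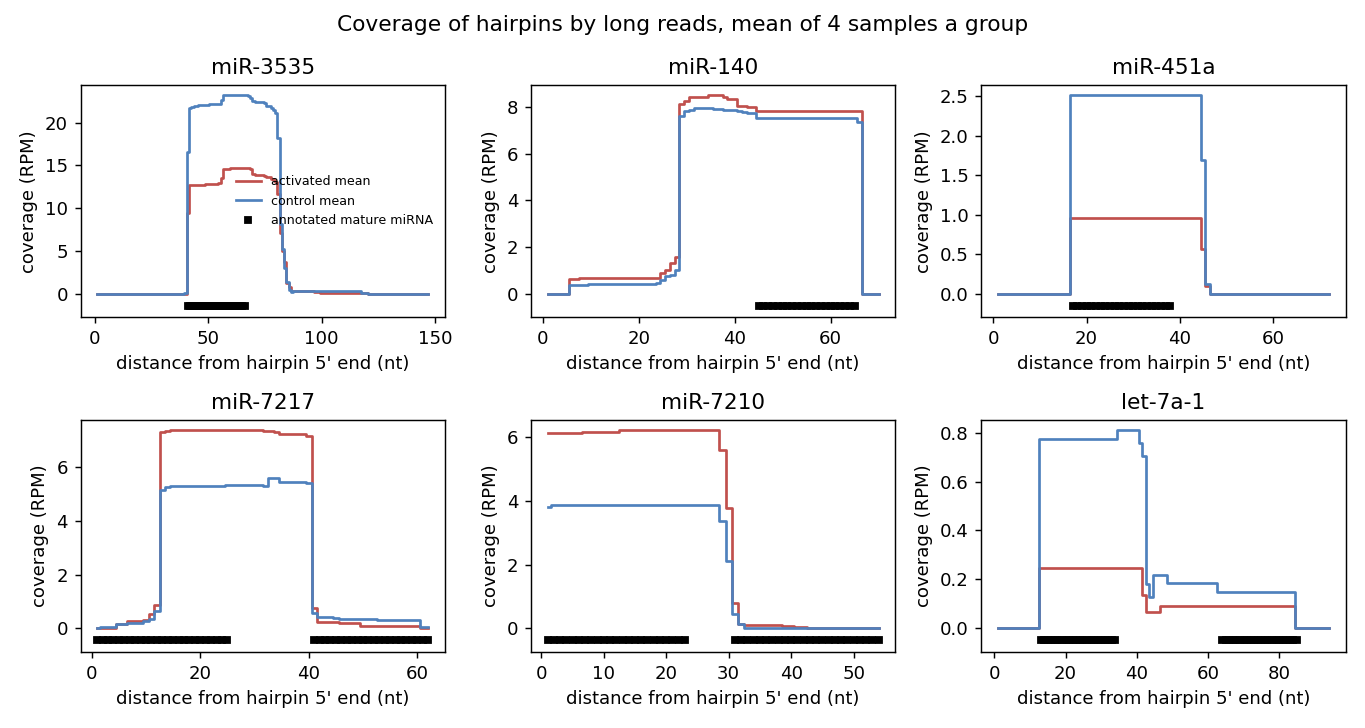
Each panel plots, for 1 hairpin, the mean coverage by long reads (RPM, vertical axis) of 4 activated (red) and 4 control (blue) libraries along the distance from the hairpin's 5' end (nt, horizontal axis), with black marks for annotated mature miRNAs. Coverage has sharp edges in all panels, at the mature start for miR-3535, miR-451a, miR-7210 and let-7a-1, in the loop and at the 3p end for miR-140, and inside the 5p miRNA for miR-7217. On the miR-140 hairpin only the 3p miRNA was placed, so no 5p miRNA is marked there. The right edges of miR-7217 and miR-7210 fall at the annotated start of the 3p miRNA.

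Position on the hairpin is given by source, as a description. Reads of hairpins missing from the reference table, 5.74% of all long reads, could not be placed and stay in the totals; they are 87.5% of the many-copy reads, 4.43% of those of the remaining hairpins and 1.28% of those between miR-7210 and miR-7243. Of the long reads inside snoRNAs or scaRNAs, 80.1% started within 2 bases of a mature start and ended away from a mature end. Most of these were reads of miR-3535, and other names of this source differed. Of the long reads of miR-677, 56.1% ended within 2 bases of a mature end and 22.4% started within 2 bases of a mature start. Of those of miR-3068, 94.6% did neither. Of the long reads of the remaining hairpins, 79.8% held a whole mature miRNA. In 47.9% the fragment ended within 2 bases of a mature end and in 33.3% it started within 2 bases of a mature start, while 14.4% did neither. Most of the reads that ended at a mature end were reads of miR-140, of which 93.4% ended there. Without miR-140, more reads of the remaining hairpins started at a mature start than ended at a mature end. Among the names between miR-7210 and miR-7243, 56.1% of the reads did neither and 37.8% held a whole mature miRNA. Their lengths were narrow, with 97.5% of the reads at 28 to 31 nt, against 29.6% for the remaining hairpins. Many-copy fragments were nearly as narrow, at 91.25%, while fragments inside snoRNAs or scaRNAs had 15.6%. Among piRNA-annotated reads of 28 to 45 nt the share at 28 to 31 nt was 90.04%, and among all reads of 28 to 45 nt it was 21.5%. Of the fragments of 28 to 31 nt between miR-7210 and miR-7243, 84.9% began with T, against 54.2% for the remaining hairpins, 77.9% for piRNA-annotated fragments and 47.6% for all fragments of those lengths. Counted over reads the shares were 68.8%, 44.85%, 70.7% and 36.5%, so the names between miR-7210 and miR-7243 were then slightly below the piRNA-annotated reads. Fragments of a locus overlap, so these shares are descriptions over few loci. A stretch of 18 bases shared with a piRNA-annotated sequence was found for 94.0% of the reads between miR-7210 and miR-7243, and also for 83.2% of those of the remaining hairpins, so that it hardly sets the sources apart.

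The next leading names were lower. miR-7234 had 2.28, 3.14, 2.03 and 3.93 RPM in activated and 3.06, 2.08, 0.753 and 2.09 RPM in control libraries. miR-7242 averaged 1.72 ± 0.552 RPM (SD, n = 4) in activated and 1.08 ± 0.523 RPM in control libraries, and miR-7214 1.48 ± 0.769 and 0.818 ± 0.653 RPM. miR-1194 averaged 1.47 ± 0.741 and 0.896 ± 0.457 RPM. The groups overlapped for each of these names. The snoRNA-borne names miR-677, at 0.575 ± 0.176 RPM in activated and 1.32 ± 0.681 RPM in control libraries, and miR-3068, at 0.428 ± 0.270 and 0.869 ± 0.255 RPM, overlapped too. miR-7229, named after its values were seen, had 10, 11, 17 and 11 long reads in activated and 5, 2, 1 and 0 in control libraries.

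**Figure D5:**
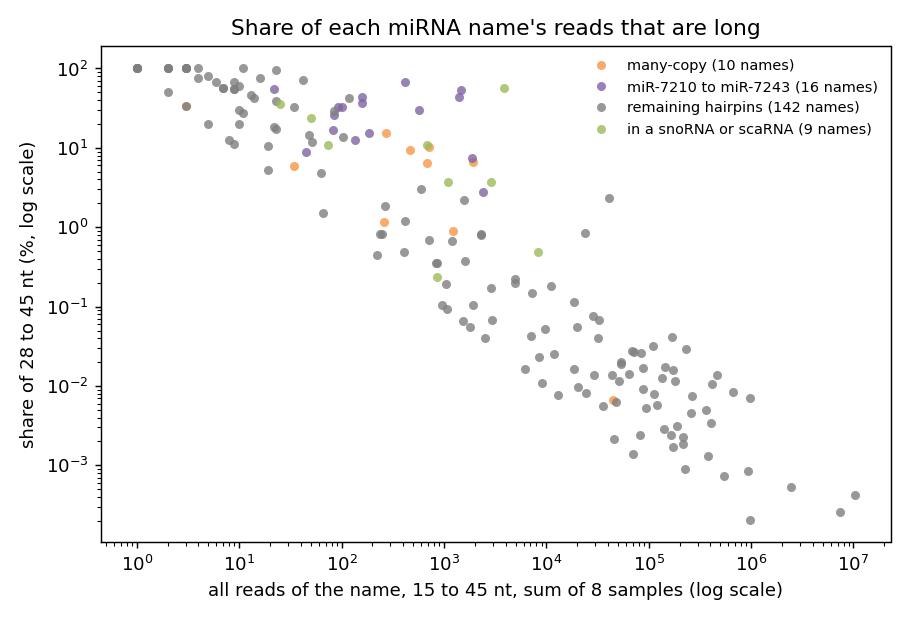
Each point is 1 of the 177 names with long reads, placed by all its reads in 8 libraries (horizontal axis, log scale) and by the percentage of them that are 28 to 45 nt long (vertical axis, log scale), with colours for the source. Since a name enters with at least 1 long read, rare names cannot lie low, and miR-34c, miR-191 and miR-16 lie lowest.

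The share of long reads varied widely between names. The share of a name's reads that were long had a median of 0.818% over the 177 names, with 31 names at 50% or more and 68 under 0.1%. Names entered only if they had a long read, so names with few reads in all could not have a low share. Among names with over 10 long reads the median share was 32.3% between miR-7210 and miR-7243, 8.02% for many-copy names, 7.25% inside snoRNAs or scaRNAs and 0.0408% for the remaining hairpins. miR-140 and miR-451a, at 2.35% and 0.836%, stood apart from the other names with at least as many reads as miR-451a (23694), whose highest share was the 0.0768% of miR-31 among 53 names. miR-31 was chosen after its value was seen.

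Long reads of the other marker lists were scarce. Of 7 epithelial miRNAs 5 had long reads, 94 in all, and their sum averaged 0.473 ± 0.385 RPM (SD, n = 4) in activated and 1.30 ± 0.661 RPM in control libraries, which overlapped. Both smooth muscle miRNAs had long reads, all 32 of them in control replicate 4, the library with 34884 RPM of their short reads. Of 5 immune miRNAs 4 had 33 long reads, and of 12 testis and sperm miRNAs 6 had 26. Their part in the results above was not tested.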

How the data were processed

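Small RNA libraries of sperm from 8 mice, made from 100 ng of RNA and sequenced as single reads, were used as deposited. The authors made the counts, raw reads for every distinct sequence, with SPORTS1.1, keeping reads of 15 to 45 nt with duplicates and matching them by Bowtie without mismatch to mm10 and to RNA databases. Expected counts per annotation class, deposited by the authors in a second table, served to check library totals. Neither was normalized. All 799 long fragments matched the genome.

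RPM were computed per 1000000 reads of a library. Samples were grouped by the labels. For summed values the two-sided exact permutation test was used. Species and fragments reaching 50 counts in 4 or more samples were tested by edgeR 4.0.16 (TMM, quasi-likelihood) in R 4.3.3, with DESeq2 1.42.0 and apeglm 1.24.0 as an alternative. Both were tested on simulated data. The SE beside an edgeR log2 fold change was derived from the test, as its size over the square root of the F statistic. Python 3.11.15, numpy 2.4.6, pandas 2.3.3, scipy 1.17.1 and matplotlib 3.10.9 did the rest. Fragments were matched exactly to GENCODE M21 transcripts and RefSeq hairpins; ends within 2 bases of a mature end counted as equal.

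Named were the 12 names with the highest mean long RPM, each with its leading fragment, the erythroid list, let-7 and miR-34c, called species or fragments or else up to 3 tested species in each direction whose groups do not overlap, and the lengths with most reads or the smallest possible p. Members and lists were chosen with earlier results of these data known. Alternatives changed the length bound, denominator, scaling, filter, tool, covariates and samples.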

Additional observations from a re-analysis of the deposited data

Results flagged for a closer look

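Of 40 groups of 4 libraries examined, 2 held a library far from the other 3, and chance gives about 2. Activated replicate 2 had 7.20 RPM of long miR-7210 reads, against 5.83 to 5.97 RPM in the other activated libraries. Activated replicate 4 had 5.31 RPM of many-copy fragments, against 2.98 to 3.29 RPM in the others.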

How the results depend on the processing

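The ratio of long miRNA-annotated RPM was 0.888 and turned to 1.02 without miR-3535, as the construction of that alternative shows. It was 0.899 without fragments seen in 1 library, a choice made after seeing the data, with an exact permutation p of 0.0286; the cause was not tested. Leaving out 1 library at a time gave 0.861 to 0.915, and for the long share of miRNA reads 0.701 to 1.002, the highest without control replicate 3. TMM gave 0.925 (exact permutation p = 0.457) and reads of 30 to 45 nt 0.768 (0.0571). The remaining hairpins alone, also chosen after seeing the data, gave 0.752 with no test.

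For RNA species DESeq2 called 3, against 0 by edgeR. For fragments edgeR called 61, all higher, DESeq2 240, of which 45 lower, edgeR with a minimum of 10 counts 202, and with the mitochondrial rRNA set as a factor 107, of which 7 lower. Leaving out 1 library gave 0 to 58, and 0 in every case but activated replicate 2 (30) and control replicate 1 (58). No long miRNA species or fragment was called under any alternative run. The labels do not say whether same-numbered samples share more than a number. Their deviations correlated at -0.50, 0.02, 0.51 and -0.10 for numbers 1 to 4, which cannot settle it. With the replicate block edgeR called 0 fragments and 0 species, and the sums gave exact permutation p of 0.250 for RPM (ratio 0.888) and 0.125 for the share (ratio 0.808), the latter the smallest that 4 pairs can give.

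Values near 0 changed sign; the cause was not tested. The log2 fold change of long miR-140 reads, 0.15 with all libraries, ran from -0.024 (without activated replicate 4) to 0.26 when 1 library was left out. That of its 38-nt fragment, -0.046 with all libraries, ran from -0.19 to 0.13, above 0 without activated replicate 3, control replicate 1 or control replicate 2. The other leading names kept their sign but moved in size when 1 library was left out. miR-3535 went from -0.61 to between -0.94 and -0.34, miR-7217 from 0.49 to between 0.23 and 0.68, and miR-7210 from 0.73 to between 0.46 and 0.87. The shrunken values of DESeq2 with apeglm were smaller, at -0.087 for miR-3535, 0.115 for miR-7217 and 0.185 for miR-7210. At 41 nt the ratio was 0.509 and ran from 0.453 to 0.582 when 1 library was left out. The unadjusted p passed 0.05 no longer without any 1 activated library or control replicate 4, nor per genome-matching reads (ratio 0.498). With the replicate block the exact permutation p was 0.125, the smallest that 4 pairs can give. At 28 nt the ratio of 1.20 became 1.33 without control replicate 2, with an exact permutation p of 0.0286. Of the 177 names 105 had at most 10 long reads. With at least 10 counts and at least 1 count in 4 libraries, 12 and 63 long names were tested and 0 called.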
